A study of Homo sapiens with 3 samples.

Results

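Rab proteins are small GTPases that sit on membranes of the secretory and endocytic routes and recruit motors, tethers and other effectors while bound to GTP. Exchange factors load a Rab with GTP, GTPase-activating proteins return it to the GDP form, and GDI proteins carry the prenylated GDP form between membranes. In epithelial cells a few Rabs, among them RAB25 and RAB17, serve transport to and from the apical surface, and Rabs of the endosomal route carry internalised receptors such as EGFR toward recycling or lysosomes.

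The Rab genes were followed in HCC827 lung adenocarcinoma cells and in their derivatives resistant to BIBW2992 (afatinib), an irreversible EGFR and ERBB2 inhibitor. HCC827 carries an activating EGFR mutation. The arrays were Illumina HumanHT-12 v3 BeadChips, with 1 array of HCC827-BR1 (clone 1 here), 1 of HCC827-BR2 (clone 2) and 1 of parental HCC827. The resistant clones were grown out under BIBW2992 raised to 2 µM over 3 to 4 months, and the parental array was labelled as sensitive. Each resistant line is 1 clone, no array was repeated, and whether drug was present at RNA extraction is not stated. Selection, cloning and time in culture cannot be told apart. Members were all genes whose symbol is RAB with a number and at most 1 letter, each represented by its brightest probe. The array named 62 such genes, and 49 exceeded background on at least 1 array, out of 11914 genes of any kind that did so.

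Of these 49 Rab genes, 43 exceeded background on all 3 arrays. RAB25 and RAB11B did so only in parental cells, RAB17 only in clone 2 and parental cells, RAB36 only in the clones, RAB30 only in clone 2 and RAB42 only in clone 1. The other 13 named genes were RAB3A, RAB3C, RAB3D, RAB6C, RAB6D, RAB7B, RAB19, RAB33A, RAB37, RAB39A, RAB39B, RAB40A and RAB41. None of their 18 probes exceeded background, with signals from 43.3 to 66.2 before normalization, so no difference is given for them. Nearest the limit on the inside was RAB42, at 67.3 in clone 1 against a threshold of 66.1, and on the outside RAB3D, at 66.2 in clone 2 against 70.7.

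Median signals before normalization were 57.3 in clone 1, 61.2 in clone 2 and 60.4 in parental cells. Epithelial identity was checked on 5 markers: EPCAM, KRT8, KRT19 and CDH1 exceeded background on each array, while the listed probes of KRT18 did so on none. Their summed normalized signal was 8682 in clone 1, 3393 in clone 2 and 43363 in parental cells. The lung factor NKX2-1 had signals of 28.7 in clone 1 and 24.5 in clone 2, both below background, and 1031 in parental cells. Of the other lung markers, NAPSA had 112 in clone 1, 54.6 in clone 2 and 2049 in parental cells, all above background. SFTPB was below background on each array. The fibroblast genes COL1A1, COL1A2, COL3A1, DCN and LUM, the leukocyte genes PTPRC and CD3E, and the endothelial genes CDH5, VWF and KDR were below background on each array. Other members of these lists were not silent. The endothelial gene PECAM1 had signals of 92.8 in clone 1, 57.9 in clone 2 and 105 in parental cells, all above background. CD14 had 47.4, 55.7 and 151 in the same order, also all above background. CD79A exceeded background in clone 1 and parental cells, and CD68 on each array. The leukocyte list of 5 summed to 7677 in clone 1, 4322 in clone 2 and 5380 in parental cells, nearly all of it CD68, a lysosomal protein.

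The comparison asked which Rab genes differed in resistant cells from the parental line. RAB25, RAB17 and RAB15, all of recycling or polarized transport, fell, and RAB32, of lysosome-related organelles, rose. Limma, a linear model with variances moderated over all genes, called these 4 of 49 Rab genes (8.16%) with a threshold of 0.05 on the Benjamini-Hochberg adjusted p, against 5.75% of all genes tested. By direction, 1 Rab gene was higher and 3 were lower, where 2.67% of all genes were called higher and 3.08% lower. With 3 arrays the fit keeps 1 residual degree of freedom, so its spread comes from the clones alone. Parental cells, with 1 array, are thus taken to have the same spread, and nothing in the labels says that the clones arose from separate cells.

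**Figure D1:**
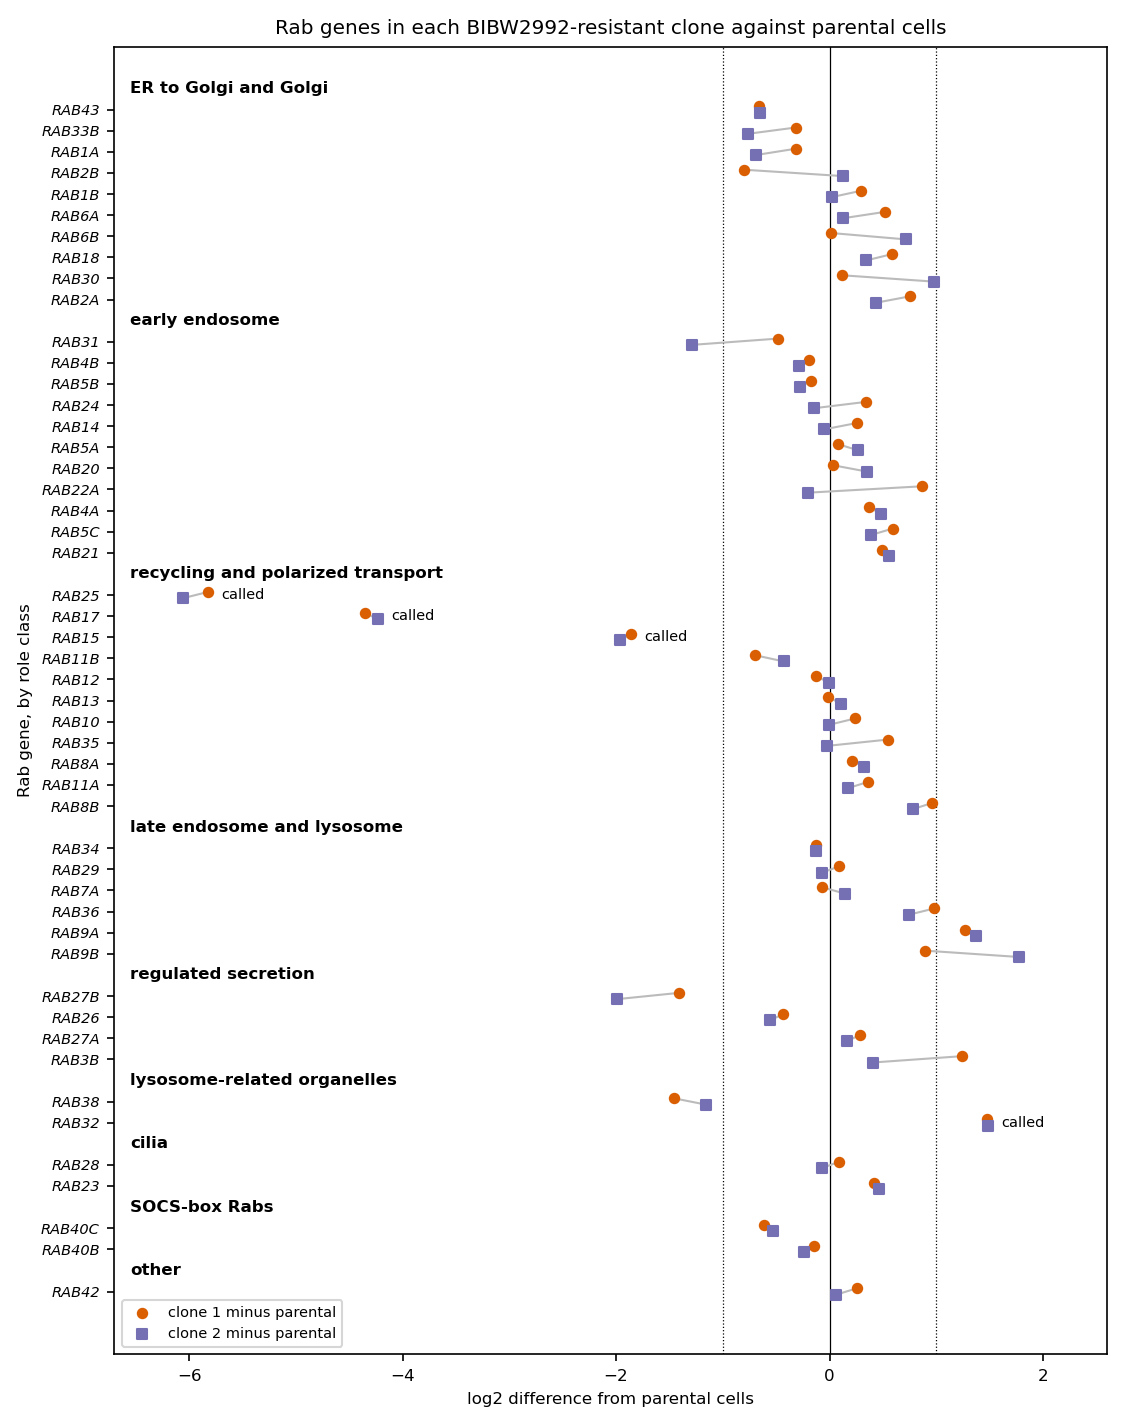
Log2 difference from parental cells for 49 Rab genes, ordered by role class and then by the mean difference, in clone 1 (circles) and clone 2 (squares). A grey line joins the clones, dotted lines mark 2-fold and "called" marks the limma calls; RAB25 and RAB17 lie far to the left, and 39 genes stay inside the dotted lines in both clones.

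By size, 7 Rab genes were 2-fold or more off in the same direction in each clone, 2 of them higher and 5 lower. These 7 genes were 14.3% of the Rab genes tested, against 9.95% of all genes (4.68% higher and 5.27% lower). Another 3, RAB31, RAB9B and RAB3B, reached 2-fold in 1 clone only. The other 39 Rab genes (79.6%) stayed under 2-fold in each clone, as did 80.8% of all genes. The median log2 difference of the Rab genes was 0.12, against 0.0105 over all genes. Their quartiles were -0.34 and 0.43, and those of all genes -0.35 and 0.35. Rab genes that did not pass on all arrays had to differ to some degree in order to enter, so these counts describe the genes that entered and not the family. With entering probes averaged, 4 Rab genes instead of 5 were 2-fold lower in both clones.

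Promoters of RAB25 and RAB17 are shown because these genes had the lowest differences of the family. Each sequence is the 250 bases before the annotated start of the gene, 5′ to 3′ on the gene's own strand, from RefSeq on GRCh38.p14. Capitals mark the hexamer CAGGTG or its reverse complement CACCTG, an E-box form known as a binding sequence of repressors such as ZEB1.
RAB25, chr1:156060910-156061159, plus strand: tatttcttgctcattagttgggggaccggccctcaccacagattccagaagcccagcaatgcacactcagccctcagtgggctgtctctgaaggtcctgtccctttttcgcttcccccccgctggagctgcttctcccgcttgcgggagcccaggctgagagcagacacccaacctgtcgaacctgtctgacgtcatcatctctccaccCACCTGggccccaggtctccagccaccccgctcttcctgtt
RAB17, chr2:237590735-237590984, minus strand: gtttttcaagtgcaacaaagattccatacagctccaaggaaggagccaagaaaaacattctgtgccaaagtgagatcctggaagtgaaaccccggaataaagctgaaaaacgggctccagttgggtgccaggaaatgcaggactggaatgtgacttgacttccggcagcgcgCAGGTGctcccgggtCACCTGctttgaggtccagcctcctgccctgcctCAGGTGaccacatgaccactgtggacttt

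The RAB25 promoter held 1 copy, from 41 to 36 bases before the start. The RAB17 promoter held 3 copies, which began 78, 63 and 29 bases before the start. Among 35116 RefSeq promoters 17.49% held at least 1 copy in the same 250 bases and 0.464% held 3 or more. The table listed 60 promoters for 40 of the 49 Rab genes, of which 10 (16.67%) held a copy and 1, that of RAB17, held 3. The other genes with a copy were RAB2B, RAB3B, RAB4A, RAB5B, RAB5C, RAB18, RAB27A and RAB30. Each of these 8 was under 2-fold off in both clones except RAB3B, which was 2.36-fold higher in clone 1 and 1.32-fold higher in clone 2. Of the other Rab genes 2-fold off in both clones, RAB15 and RAB38 had no promoter listed. The listed promoters of RAB27B, RAB9A and RAB32 held 0 copies. The motif was chosen after the values had been seen, and a match is not a bound site.

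Among Rabs of recycling and polarized transport, 3 of 11 tested (27.3%) were called lower and 0 higher, where 3.08% of all genes were called lower. The role classes were chosen with earlier results of these data known, so this share only describes the class and was not tested. RAB25 entered through the parental array alone, where it is high, so its entry and its call rest on the same signal. With probes required on all 3 arrays, RAB25 and RAB17 did not enter, and RAB15 was the only Rab gene called. RAB25, an epithelial member of the RAB11 subfamily that recycles cargo to the apical surface, had normalized signals of 34.8 in clone 1 and 29.5 in clone 2, against 1966 in parental cells. Both clones were below background, so on the reported scale the decrease is at least 45.9-fold (log2 -5.94 as fitted, SE 0.27, limma adjusted p = 0.00269). Normalized signals here are background-corrected, scaled between arrays and never lower than an added offset of 16. A bound sets the parental signal against the lowest normalized signal that exceeded background on each clone's array, 42.3 in clone 1 and 43.3 in clone 2. All bounds given hold for offset 16 alone. With offset 50 the RAB25 log2 difference as fitted was -4.92, a smaller decrease than its bound.

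RAB17, another epithelial Rab of apical recycling and transcytosis, had signals of 40.5 in clone 1 and 44.2 in clone 2, against 828 in parental cells. Clone 1 was below background and clone 2 just above it. The decrease was at least 19.6-fold in clone 1 and 18.7-fold in clone 2 (log2 -4.29, SE 0.26, adjusted p = 0.00441). With offset 50 the log2 difference was -3.50, again a smaller decrease. RAB15, which acts between early and recycling endosomes, had signals of 165 in clone 1 and 153 in clone 2, against 596 in parental cells. It exceeded background on each array and fell 3.76-fold (log2 -1.91, SE 0.26, adjusted p = 0.0224).

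Beside these falls, NKX2-1 fell at least 24.1-fold and the leukocyte marker CD14 was called lower (log2 -1.56, adjusted p = 0.0427). EPCAM, CDH1 and KRT8 were called lower of the 4 epithelial markers measured. KRT19 was 2.75-fold lower in clone 1 and 14.7-fold lower in clone 2, without a call (adjusted p = 0.214). The part of this wider decrease in epithelial transcripts in the Rab result was not tested. In lysates, fewer expressing cells and less RNA per cell cannot be told apart.

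The RAB11 subfamily differed among its members. RAB11A, the ubiquitous recycling Rab, had signals of 3213 in clone 1 and 2816 in clone 2, against 2497 in parental cells, a log2 difference of 0.27 (SE 0.27, adjusted p = 0.637). RAB11B had 31.6 in clone 1 and 38.2 in clone 2, against 51.4 in parental cells. Both clones were below background and the parental array was only slightly above it, so its log2 difference of -0.56 (adjusted p = 0.339) is at least 1.20-fold lower. RAB25 was thus the subfamily member far below its parental level, RAB11A lay slightly above its own, and the RAB11B probe was too dim to place it. The RAB25 difference from RAB11A was not itself tested.

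Of the other recycling and polarized transport Rabs, 0 were called. RAB10, of basolateral and glucose transporter traffic, had signals of 4886 in clone 1 and 4126 in clone 2, against 4138 in parental cells, a log2 difference of 0.12 (adjusted p = 0.855). RAB8A, RAB12, RAB13 and RAB35 had mean log2 differences from -0.0652 to 0.27. RAB8B, a relative of RAB8A in traffic to the cell surface, had 1582 in clone 1 and 1391 in clone 2, against 811 in parental cells. Both clones were above the parental array, by 1.95-fold and 1.71-fold, without a call (log2 0.87, SE 0.27, adjusted p = 0.161).

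**Figure D2:**
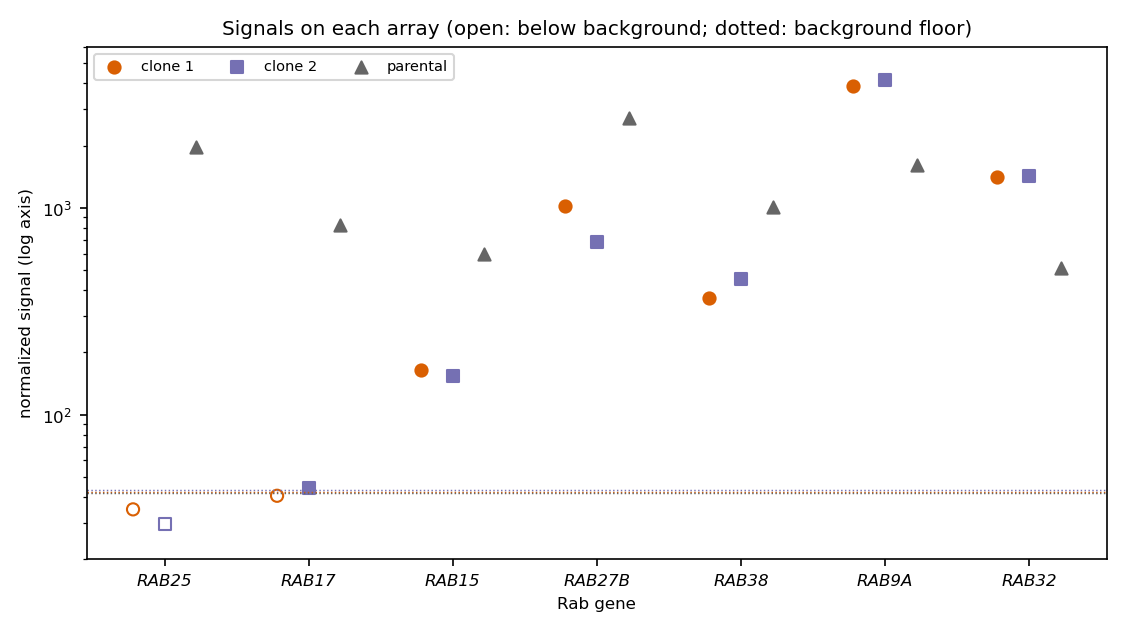
Normalized signal on a log axis for the 7 Rab genes at least 2-fold off in both clones, on the arrays of clone 1 (circles), clone 2 (squares) and parental cells (triangles). Open symbols are below background and dotted lines mark the lowest signal above background on each array; the clones lie together for each gene, below parental cells for 5 genes and above them for RAB9A and RAB32.

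The Rabs of lysosome-related organelles, RAB32 and RAB38, differed in opposite directions. Both deliver enzymes to melanosomes in mouse melanocytes, and RAB38 is also needed for normal lamellar bodies of alveolar cells in rats. RAB32 had signals of 1417 in clone 1 and 1427 in clone 2, against 509 in parental cells, and rose 2.79-fold (log2 1.48, SE 0.26, adjusted p = 0.0422). RAB38 had 368 in clone 1 and 454 in clone 2, against 1009 in parental cells. It was 2.74-fold lower in clone 1 and 2.22-fold lower in clone 2, without a call (log2 -1.30, SE 0.28, adjusted p = 0.0744). The opposite signs held in both clones and under each of the 9 refitted processing settings tried.

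In the late endosomal and lysosomal class, 0 of 6 tested genes were called. At an unadjusted p under 0.05, limma passed 10 of the 49 Rab genes in all classes (20.4%), against 20.5% of all genes. RAB9A, which returns mannose 6-phosphate receptors from late endosomes to the Golgi, had 3884 in clone 1 and 4170 in clone 2, against 1609 in parental cells. That is 2.41-fold and 2.59-fold higher, at an adjusted p of 0.0587, which lay under 0.05 in 5 of 9 refitted settings. Its paralog RAB9B had 78.0 in clone 1 and 143 in clone 2, against 41.9 in parental cells, where it barely exceeded background. It was 1.86-fold and 3.42-fold higher, and the clones lay far enough apart that its adjusted p was 0.172. RAB36, which positions late endosomes and lysosomes, had 65.5 in clone 1 and 55.4 in clone 2, against 33.2 in parental cells, below background there, so it was at least 1.45-fold higher (adjusted p = 0.172).

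RAB7A, the main Rab of late endosome and lysosome fusion, had 3490 in clone 1 and 4045 in clone 2, against 3656 in parental cells. The parental value lay between the clones, with a log2 difference of 0.0396 (adjusted p = 0.954), which turned to -0.0375 after median scaling. RAB29 and RAB34 had log2 differences of 0.0131 and -0.13.

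In regulated secretion, 0 of 4 tested Rabs were called. RAB27B, which docks secretory granules and multivesicular bodies at the plasma membrane, had 1027 in clone 1 and 685 in clone 2, against 2728 in parental cells. It was 2.66-fold lower in clone 1 and 3.98-fold lower in clone 2 (log2 -1.70, SE 0.34, adjusted p = 0.0615). Its 2 other probes were dim: 1 exceeded background only in parental cells, with a log2 difference of -0.36, and the other on no array. Averaging over the entering probes moved the RAB27B difference to -1.03. Its paralog RAB27A had 156 in clone 1 and 143 in clone 2, against 128 in parental cells, a log2 difference of 0.22 (adjusted p = 0.696).

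RAB3B, of synaptic and secretory vesicles, had 293 in clone 1 and 164 in clone 2, against 124 in parental cells, 2.36-fold and 1.32-fold higher. It was not called (adjusted p = 0.343). RAB26, of secretory granules, had 89.3 in clone 1 and 82.0 in clone 2, against 120 in parental cells (log2 -0.49, adjusted p = 0.371).

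Of 11 early endosomal Rabs tested, 0 were called and 10 stayed under 2-fold in each clone. RAB5B, a Rab of early endosome fusion, had 1910 in clone 1 and 1783 in clone 2, against 2156 in parental cells, a log2 difference of -0.22 (adjusted p = 0.691). Its paralogs RAB5A and RAB5C had log2 differences of 0.17 and 0.49. The exception to the 2-fold limit was RAB31, which works between the Golgi and endosomes. RAB31 had 1723 in clone 1 and 982 in clone 2, against 2403 in parental cells, so that the clones were lower by 1.40-fold and 2.45-fold, with no call (adjusted p = 0.305).

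RAB22A, a relative of RAB5 in sorting and recycling from early endosomes, was the 1 Rab gene with at least a 2-fold difference between the clones, where 3.78% of all genes differed as much. It had 883 in clone 2 and 1839 in clone 1, 2.08-fold apart, against 1012 in parental cells. Clone 1 was 1.82-fold above the parental array and clone 2 was 1.15-fold below it. With 1 array of each clone this difference has no replicate check.

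Of the Rabs of the endoplasmic reticulum and Golgi, all 10 tested stayed under 2-fold in each clone, and 0 were called. RAB2B, of transport between the endoplasmic reticulum and Golgi, had 880 in clone 1 and 1664 in clone 2, against 1529 in parental cells (log2 -0.34, adjusted p = 0.726). Its paralog RAB2A had 909 in clone 1 and 732 in clone 2, against 540 in parental cells (log2 0.59, adjusted p = 0.325). The class ran from RAB43 at -0.66 to RAB2A. RAB6A, of retrograde Golgi transport, had a log2 difference of 0.32 on its brightest probe and -0.0306 on its other probe, and cross-reaction of its probes with the near-identical copies RAB6C and RAB6D was not tested. RAB30, a Golgi Rab, exceeded background only in clone 2, where it was at least 1.84-fold above parental cells.

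The remaining classes held no call. RAB23, a negative regulator of Hedgehog signalling in cilia, had 1775 in clone 1 and 1842 in clone 2, against 1331 in parental cells (log2 0.44, adjusted p = 0.414). RAB28 differed by 0.0105. RAB40C, which carries a SOCS box and joins a ubiquitin ligase, had 1284 in clone 1 and 1365 in clone 2, against 1967 in parental cells (log2 -0.57, adjusted p = 0.303). RAB40B differed by -0.19. RAB42, little studied, had 43.6 in clone 1 and 38.2 in clone 2, against 36.5 in parental cells. It exceeded background in clone 1 alone, where it was at least 1.05-fold higher than in parental cells.

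Both clones lay above the parental array for 22 Rab genes and below it for 17, and the parental value lay between the clones for 10. These 10 were 20.4% of the Rab genes, against 21.7% of all genes. The median distance between the clones was 0.20 on the log2 scale for Rab genes and 0.25 over all genes. Of the 49 genes, 10 had further probes above background, 12 in all. On 9 of these probes the mean difference had the sign of the brightest probe, and the 3 exceptions belonged to RAB6A, RAB27A and RAB28, each under 2-fold.

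Genes that load, unload and use Rabs were examined as 9 lists holding 154 genes, of which 144 were named on the array and 129 tested. Limma called 3 higher and 5 lower, 6.20% of those tested, close to the 5.75% of all genes. Their median log2 difference was -0.0838. No call fell among effectors of RAB5, RAB7, of RAB1 and RAB6, or of RAB8, RAB10 and RAB13, or in the prenylation and GDI list. As with the Rab genes, list genes that did not pass on all arrays had to differ to some degree in order to enter. With probes required on all 3 arrays, MYRIP, MYO5B and SGSM1 did not enter. List calls were then 0 higher and 2 lower, where 2.88% of all genes were called.

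Effectors of RAB11 and RAB25 held 1 call among 18 tested (5.56%, against 5.75% of all genes). MYO5B, the myosin motor that moves RAB11 recycling endosomes, had 47.5 in clone 1 and 43.0 in clone 2, against 188 in parental cells. It was 3.96-fold lower in clone 1 and at least 4.35-fold lower in clone 2, where it was below background (log2 -2.06, SE 0.26, adjusted p = 0.0190). RAB11FIP4, an adaptor of the RAB11 family, exceeded background in neither clone, against a signal of 68.8 in parental cells. It was at least 1.61-fold lower and not called (adjusted p = 0.0567). Other adaptors of the family were higher without a call: RAB11FIP5 by a log2 of 1.00, RAB11FIP3 by 0.94 and RAB11FIP2 by 0.49 (adjusted p = 0.121, 0.137 and 0.374). Of the 18 genes, 8 were higher in both clones and 7 lower. RAB11FIP1, which binds RAB11 and RAB25, had 3172 in clone 1 and 2374 in clone 2, against 3079 in parental cells (log2 -0.17, adjusted p = 0.810).

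Effectors of RAB3 and RAB27 held 1 call among 9 tested (11.1%, against 5.75% of all genes). MYRIP, which links RAB27A on secretory granules to myosins and actin, had 166 in clone 1 and 290 in clone 2, against 21.2 in parental cells, below background there. It entered through the clones alone, where it is high, so its entry and its call rest on the same signals. On its brightest probe MYRIP rose at least 5.28-fold (log2 3.37 as fitted, SE 0.40, adjusted p = 0.0159). Averaging over the entering probes moved the MYRIP log2 difference to 2.01 (adjusted p = 0.0262). With offset 50 the MYRIP log2 difference was 2.21 (adjusted p = 0.0474). Both are smaller rises than the bound, and MYRIP stayed called in both. SYTL1, a synaptotagmin-like RAB27 effector, had a bound of at least 2.26-fold lower, since neither clone exceeded background (adjusted p = 0.0544). EXPH5, another RAB27 effector, had 73.3 in clone 1 and 56.8 in clone 2, against 150 in parental cells, with no call (adjusted p = 0.0985). The 3 effectors thus had differences of both signs.

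**Figure D3:**
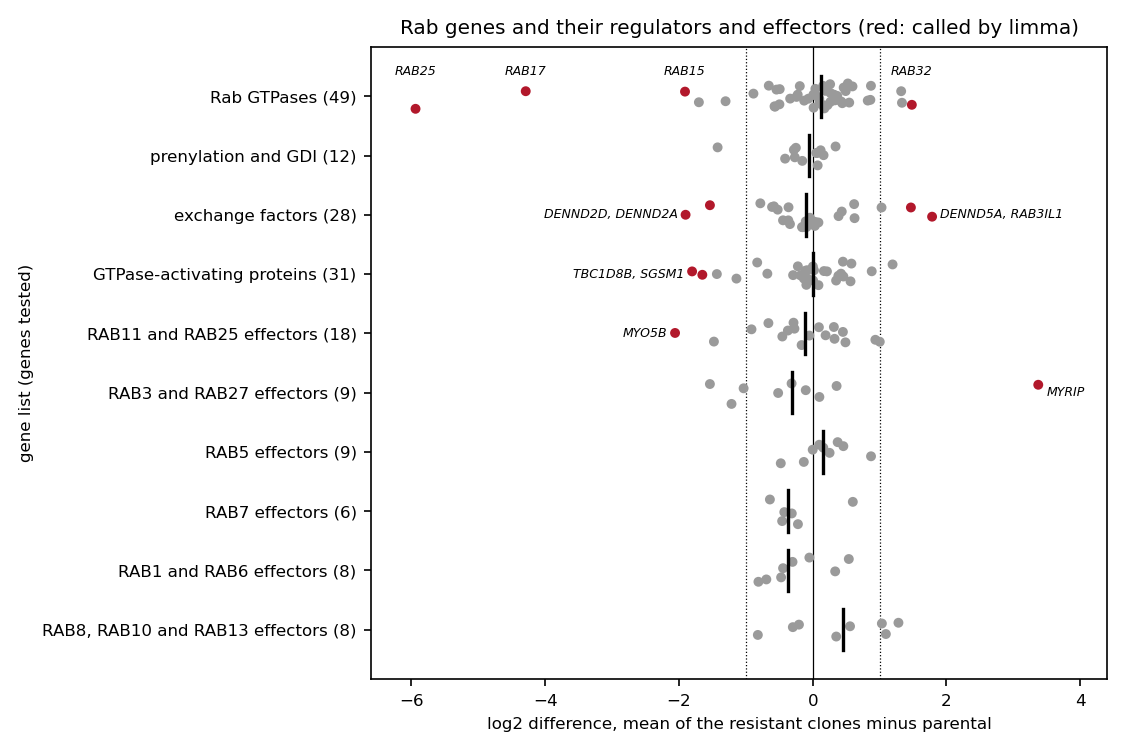
Log2 difference of the mean of the resistant clones from parental cells for the Rab genes and for the 9 lists of their regulators and effectors, with 1 point for each gene. Black bars are list medians, dotted lines mark 2-fold and red points are limma calls with their names; the list medians lie between -0.37 and 0.45, while RAB25 and RAB17 have no counterpart as low in any list.

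Among 28 exchange factors tested, 2 rose and 2 fell (14.3% called, against 5.75% of all genes). RAB3IL1, an exchange factor for RAB3 and RAB8 proteins, had 550 in clone 1 and 408 in clone 2, against 137 in parental cells, and rose 3.45-fold (adjusted p = 0.0410). DENND5A, a DENN-domain protein of endosomal traffic, had 3512 in clone 1 and 3497 in clone 2, against 1267 in parental cells, and rose 2.77-fold (adjusted p = 0.0428). DENND2D had 108 in clone 1 and 155 in clone 2, against 483 in parental cells, and fell 3.73-fold (adjusted p = 0.0412). DENND2A, of the same DENN family, which acts on RAB9 proteins, had 81.0 in clone 1 and 80.7 in clone 2, against 235 in parental cells, and fell 2.90-fold (adjusted p = 0.0384). These 4 exceeded background on all 3 arrays, but when each gene had to do so RAB3IL1, DENND5A and DENND2D were no longer called (adjusted p from 0.0538 to 0.0539), while DENND2A was (0.0491). RAB3IL1 was also not called with offset 50 (0.0516). RIN2, an exchange factor of RAB5, differed by a log2 of -0.36 (adjusted p = 0.501).

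Of 31 GTPase-activating proteins tested, 2 fell and 0 rose (6.45% called, close to the 5.75% of all genes). TBC1D8B, a TBC-domain protein, had 82.0 in clone 1 and 84.8 in clone 2, against 291 in parental cells, and fell 3.49-fold (adjusted p = 0.0257). SGSM1 had 35.2 in clone 1, below background, and 43.3 in clone 2, against 123 in parental cells. It fell by 2.83-fold or more in each clone (adjusted p = 0.0404). TBC1D2, which acts on RAB7, and EVI5L were lower by 2.70-fold and 2.20-fold and were not called (adjusted p = 0.111 and 0.0843). In the other direction, TBC1D2B had 352 in clone 1 and 274 in clone 2, against 136 in parental cells, a log2 difference of 1.19 without a call (adjusted p = 0.101). Both clones were higher for 12 of the 31 and lower for 12. The call of TBC1D8B was lost when entering probes were averaged (adjusted p = 0.0928), and that of SGSM1 with offset 50, without background correction and on the authors' processed values (adjusted p from 0.0608 to 0.0708). SGSM2, relative of SGSM1, differed by 0.44 (adjusted p = 0.427).

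In the other lists, YIPF6, a Golgi membrane protein, was 3.44-fold lower in clone 1 and 2.09-fold lower in clone 2 (adjusted p = 0.120). The RAB8 effector OPTN (optineurin) and the RAB8 and RAB35 effector MICALL1 were 2.05-fold and 2.13-fold higher on average (adjusted p = 0.105 and 0.0936). RABEP1, a RAB5 effector, and VPS41, a subunit of the lysosomal tether that works with RAB7, had log2 differences of 0.16 and -0.64 (adjusted p = 0.805 and 0.272).

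Neighbours of the called Rab genes were read from the RefSeq gene order, taking the nearest 3 protein-coding genes on each side; this was chosen after the values had been seen. Of the 4 tested beside RAB25 (SSR2, UBQLN4, LAMTOR2 and LMNA), 0 were called, with log2 differences from -0.48 to -0.0168. Beside RAB15, 5 neighbours were tested and 3 were called lower, where 3.08% of all genes were called lower. These were GPX2, a glutathione peroxidase (log2 -3.37, adjusted p = 0.00731), FUT8, a fucosyltransferase (-1.59, adjusted p = 0.0358), and CHURC1 (-1.45, adjusted p = 0.0451). FNTB and MAX, in the same stretch, differed by 0.11 and -0.23. Beside RAB17, 4 neighbours were tested, of which RAMP1, a receptor activity-modifying protein, fell (log2 -3.22, adjusted p = 0.0163). MLPH, the RAB27 effector melanophilin, also lies beside RAB17 and was 2.92-fold lower in clone 1 and 1.43-fold lower in clone 2 without a call (adjusted p = 0.305). LRRFIP1 and RBM44, the others tested beside RAB17, differed by 0.0712 and -0.0291 without a call (adjusted p = 0.915 and 0.969). Of the 4 tested beside RAB32, 0 were called.

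The 7 Rab genes 2-fold off in both clones kept their direction under each of the refits that measured them. RAB25, RAB17 and RAB15 were called in each of these. RAB32 lost its call (adjusted p = 0.0527) when probes had to exceed background on all 3 arrays, a setting that also drops RAB25 and RAB17. RAB9A and RAB27B, uncalled in the reported fit, reached adjusted p values as low as 0.0369 and 0.0391 in other settings, and RAB38 came no lower than 0.0518.

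**Figure D4:**
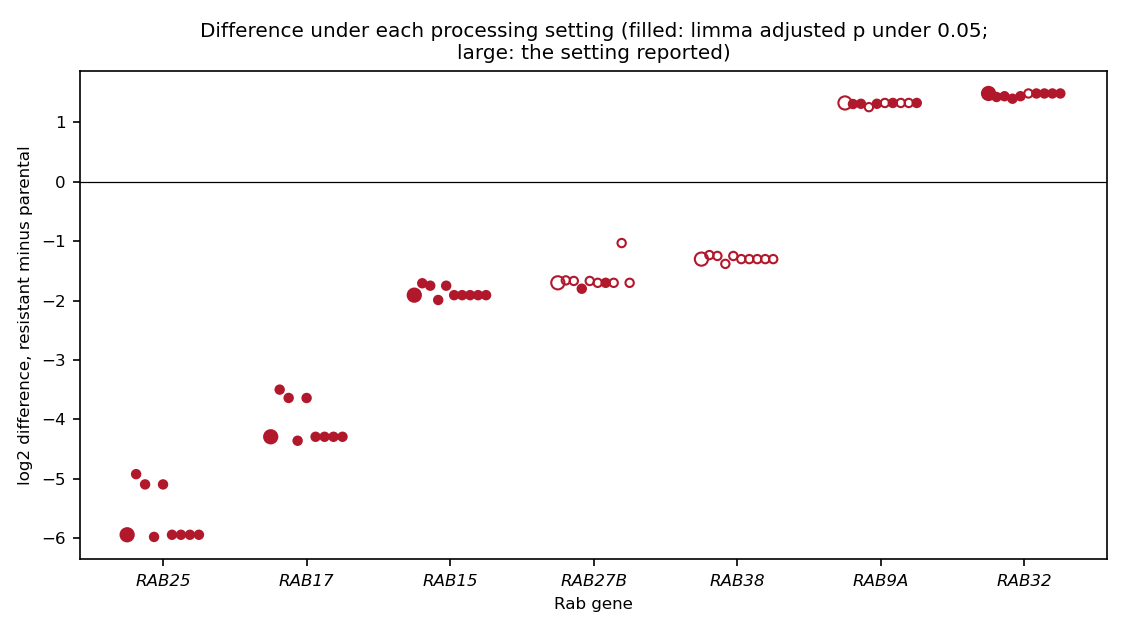
Log2 difference of the resistant clones from parental cells for the 7 Rab genes at least 2-fold off in both clones, under the reported setting (large symbol) and each refitted alternative that keeps the gene (small symbols). Filled symbols have a limma adjusted p under 0.05; RAB25, RAB17 and RAB15 are filled throughout, RAB38 never, and RAB9A, RAB27B and RAB32 in part.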

How the data were processed

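Per the labels' protocols, biotinylated cRNA made from total RNA was read on the Illumina arrays. The deposited non-normalized table holds linear intensity values of 48803 probes on 3 arrays, without detection p-values or control probes; how bead values were summarised is not stated in the labels. A second deposited table, the authors' processed intensity values, is linear and shares 1 distribution across arrays to within 0.352 units. It was used as an alternative.

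Background was corrected with normexp (offset 16), followed by log2 and quantile normalization. Background on each array was taken as the mode of log2 signal, with an SD from the values below it, and a probe exceeded it at a one-sided p under 0.01. Of 554 probes for olfactory, taste and vomeronasal receptors and keratin-associated proteins, 3.07% to 3.61% passed, so some dim genes were counted as present in error. Gene names came from the platform's annotation (28098 with 1 gene, 13 with several, 20692 not listed) and updated by Entrez ID through RefSeq (28059 matched). The difference of the clones' mean from parental cells was tested with limma 3.58.1 in R 4.3.3, adjusted over 11914 genes (prior 4.08 degrees of freedom). The fit was also run on simulated data that gave every array the same spread for each gene. That run cannot check whether parental cells share the clones' spread.

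Members, role classes and lists were chosen with earlier results of these data known. Named in full were Rab genes called, 2-fold off in both clones or between them, the RAB11 subfamily and the brightest of each role class, and, of each list, up to 4 genes 2-fold off in both clones plus the brightest under 2-fold; other Rab genes, TBC1D2B and RAB11FIP2, RAB11FIP3 and RAB11FIP5 were added after their values were seen. Alternatives covered background correction, scaling, detection limit, probe rule, variance trend and each clone left out.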

Additional observations from a re-analysis of the deposited data

Results flagged for a closer look

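The clones lay on opposite sides of the parental value for 10 of 49 Rab genes. RAB22A was the widest of these, with a log2 difference of -1.06 for clone 2 minus clone 1. With 1 array of each clone, the difference between them was not tested.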

How the results depend on the processing

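The number of arrays limits each value, and genes near background have bounds only. RAB25, RAB17 and RAB15 were called under each refit that kept them, with log2 differences from -5.97 to -4.92, -4.36 to -3.50 and -1.99 to -1.71. With probes required on all 3 arrays, RAB25 and RAB17 do not enter. Of 43 Rab genes 0 were then called higher and 1 lower, where 2.88% of 9797 genes of any kind were called. The Rab share thus lay no higher than that of all genes. In this setting 3 Rab genes were 2-fold lower in both clones, and the list calls were 0 higher and 2 lower. Calls over all genes numbered 282 there, against 685 in the reported fit. Of genes still measured there, RAB32 (adjusted p = 0.0527), RAB3IL1, DENND5A and DENND2D lost their calls. Rab calls higher numbered 2, with RAB9A added, under offset 50, no background correction, the authors' values, no filter and an intensity trend. RAB27B was called under median scaling and under no filter. With entering probes averaged, 4 Rab genes were 2-fold lower in both clones, against 5 in the reported fit. Median scaling turned RAB7A to -0.0375. Without 1 clone or the other, no residual degree of freedom is left; 3 Rab genes were 2-fold higher, 5 to 6 were lower, and the Rab median ran from 0.0195 to 0.0921. No paired analysis was possible because there was only 1 parental array for the 2 clones.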
